A study of Mus musculus with 6 samples.

Results

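The TRIM family of ubiquitin ligases was followed in the left ventricle of mice with myocardial infarction (MI) by bulk RNA-seq. Its members were taken by name alone, as every gene whose symbol is Trim followed by a digit, which gave 68 of the 34745 genes listed. Of these, 43 had 10 or more counts in at least 3 libraries and were tested, and 25 were not. The first group, MI-DAPA, was taken from infarcted mice on dapagliflozin, a heart failure drug that blocks the glucose transporter SGLT2. Its comparison group, MI-NS, came from infarcted mice given NS, which the labels do not spell out; the count tables recorded for this group carry another abbreviation in their names. Both groups carried the infarct, there was no uninfarcted group, and the dose, the time after infarction, the age, sex and strain of the mice and any pooling are not stated. Each group held 3 libraries, labelled as biological replicates without naming animals, so the p-values measure only how far these libraries spread, which may be technical. Total counts were 19086206 to 20563188 in MI-DAPA libraries and 17207974 to 20540321 in MI-NS libraries. A floor of 3 counts corresponds to 0.133 to 0.178 CPM, the depth-scaled count used below, and covers counting error only.

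TRIM proteins are built from a RING finger, B-box zinc fingers and a coiled coil, followed by a C-terminal domain that differs between members. Most are E3 ligases, which pass ubiquitin from a conjugating enzyme to a chosen target protein. In the heart, the muscle RING-finger proteins Trim63 (MuRF1), Trim55 (MuRF2) and Trim54 (MuRF3) sit at the sarcomere, where Trim63 marks contractile proteins for the proteasome, and Trim72 (MG53) patches damaged cell membranes. Other members serve innate immunity: Trim25 ubiquitinates the viral RNA sensor RIG-I, and Trim21 is a cytosolic antibody receptor.

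In the hearts of mice given dapagliflozin, 3 of the 4 muscle TRIM genes were higher, Trim54 did not pass the test, and the RIG-I ligase Trim25 was lower. In MI-DAPA hearts 5 members were higher (Trim55, Trim63, Trim72, Trim7 and Trim35) and 5 were lower (Trim25, Trim30a, Trim3, Trim47 and Trim16) than in MI-NS hearts, at an adjusted p of 0.05 (edgeR quasi-likelihood test, Benjamini-Hochberg over the 13984 genes tested). The 10 calls are 23.3% of the tested members, beside 16.5% of all tested genes, and the family was not compared with other genes by a test. Per direction, 11.6% of the members were higher beside 8.65% of all genes, and 11.6% were lower beside 7.81%. The change in members ranged between -1.26 and 0.64 on the log2 scale with a median of -0.18, beside -0.02 over all genes. It was above 0 in 13 members and below 0 in 30, beside 6669 and 7315 of all genes (47.7% above 0). In 17 members (39.5%) the ranges of MI-DAPA and MI-NS were separate, 6 with MI-DAPA above and 11 with MI-DAPA below, beside 36.8% of all genes, and 18.4% in each direction. The number of calls depended on single libraries: it was 2 without MI-DAPA replicate 1 and 5 to 7 without any other 1 library. Calls over all genes fell as well, from 2302 with all libraries to 1019 without MI-DAPA replicate 1. The files of the third replicates follow another naming style, and without that pair of libraries 1 member (Trim25) was called, and 22 genes in all.

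**Figure D1:**
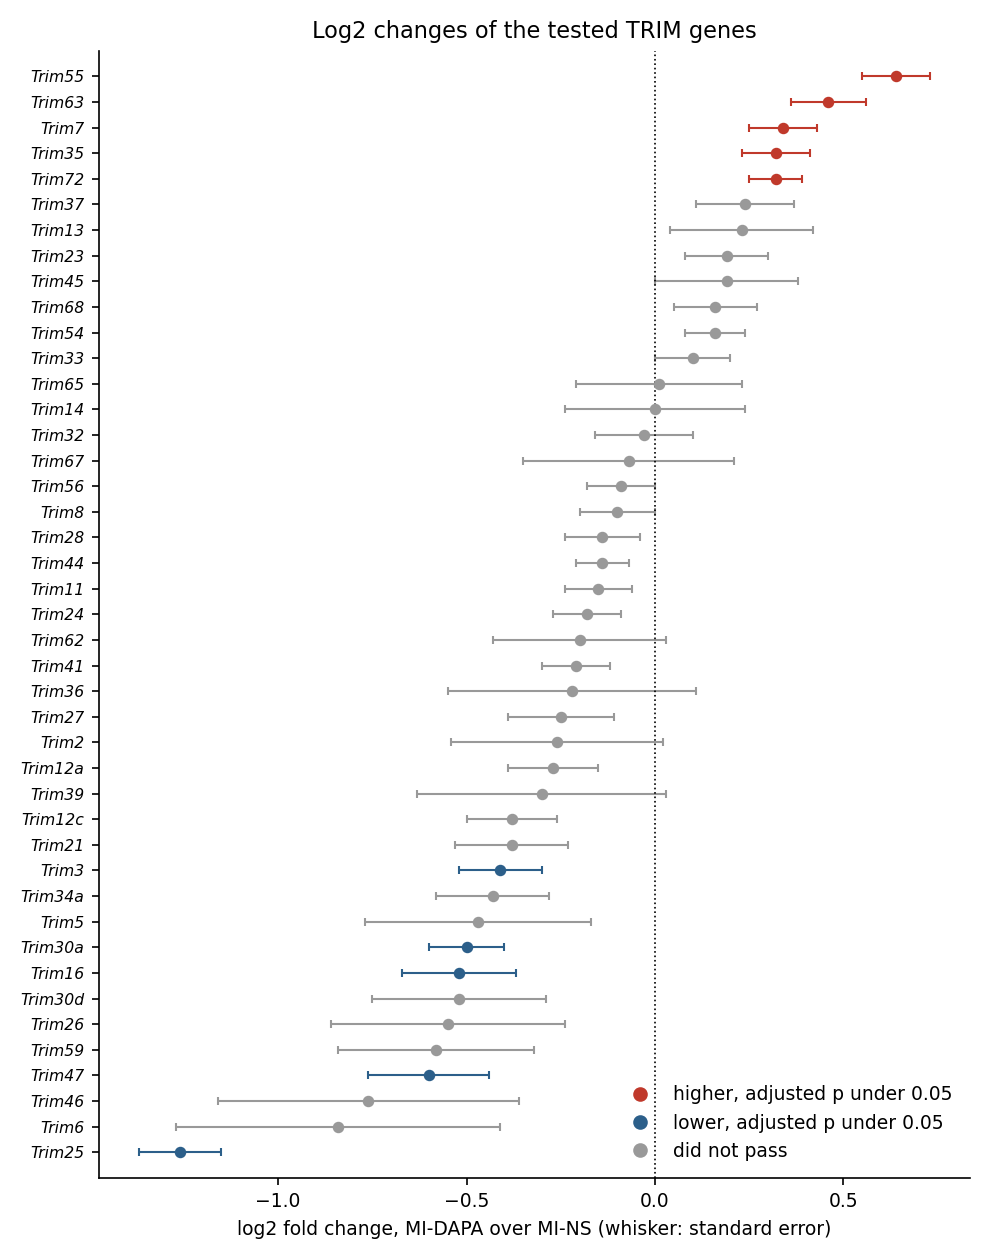
Log2 change, MI-DAPA over MI-NS, with its standard error for the 43 tested TRIM genes, ordered by size and coloured by the outcome of the test over all genes. Trim55 has the highest value at 0.64 and Trim25 the lowest at -1.26, and 30 members lie below 0.

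The family's share of the whole library overlapped between groups. TRIM genes took 0.151, 0.15 and 0.138% of all counts in MI-DAPA libraries, against 0.158, 0.144 and 0.138% in MI-NS libraries. Within the family, the muscle members Trim54, Trim55, Trim63 and Trim72 held 57.8, 55.9 and 55.8% of the family's counts in MI-DAPA libraries, against 47.7, 47.7 and 49.1% in MI-NS libraries. Trim25 and Trim21 together held 1.84, 1.67 and 1.92% in MI-DAPA libraries, against 4.33, 4.34 and 3.98% in MI-NS libraries. Neither share overlapped between groups. Shares within a library do not depend on how libraries are scaled to each other.

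**Figure D2:**
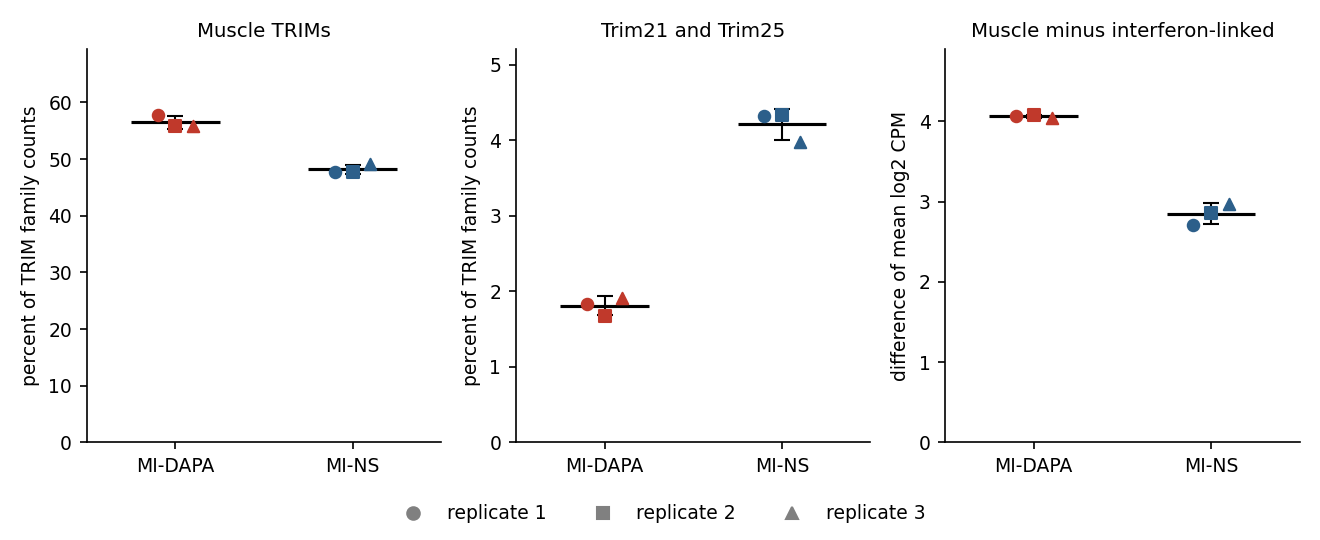
Share of the family's counts held by the muscle members (left) and by Trim21 and Trim25 (middle), and the mean log2 CPM of the muscle members minus that of the pair (right), in each library, with the mean and SD of 3 libraries. The muscle share is 55.8 to 57.8% in MI-DAPA and 47.7 to 49.1% in MI-NS libraries, the pair's share 1.67 to 1.92% in MI-DAPA and 3.98 to 4.34% in MI-NS libraries, and the difference 4.04 to 4.08 in MI-DAPA and 2.71 to 2.97 in MI-NS libraries.

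Among the muscle members, 3 of 4 were higher in MI-DAPA hearts, beside 8.65% of all genes. The median log2 change of these 4 was 0.39. Per kilobase of annotated exon, these were also the most abundant members: the mean level over all libraries was 160 CPM per kb for Trim54, 149 for Trim72, 50.2 for Trim63 and 24.2 for Trim55, ahead of Trim35 at 19.1. As the samples are pieces of tissue, fewer cells of a type and less RNA per cell cannot be told apart for any gene below.

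Trim55 (ENSMUSG00000060913; mm10 chromosome 3, 19644474 to 19692421), the MuRF2 ligase that links the titin kinase region to the nucleus, changed most among them. It had 74.8, 76.2 and 84.5 CPM in MI-DAPA libraries, against 50.6, 46.7 and 53.4 CPM in MI-NS libraries. Every MI-DAPA library was above every MI-NS library, and the log2 change was 0.64 ± 0.09 (SE; 1.56-fold; edgeR adjusted p = 0.00454). Its call held in 15 of 16 alternative settings and was lost without the third replicate of both groups (edgeR adjusted p = 0.0718).

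Trim63 (ENSMUSG00000028834; mm10 chromosome 4, 134315120 to 134329629), the MuRF1 ligase of muscle atrophy, had 178, 172 and 147 CPM in MI-DAPA libraries, against 116, 113 and 131 CPM in MI-NS libraries. The groups did not overlap, although the third replicates lay closest together. The log2 change was 0.46 ± 0.10 (SE; 1.38-fold; edgeR adjusted p = 0.0145). The call was lost without MI-DAPA replicate 1 (edgeR adjusted p = 0.057), without the third replicate of both groups (0.0718) and when libraries were scaled by their totals (0.0675).

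The 250 bases before the Trim63 start site are shown because this promoter holds elements tied to atrophy and to muscle (RefSeq, GRCm38.p6, plus strand, chr4:134314870-134315119). Capitals mark, in order, a FOXO element, an MCAT element and an E-box, each found by its letters on either strand.

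Trim63: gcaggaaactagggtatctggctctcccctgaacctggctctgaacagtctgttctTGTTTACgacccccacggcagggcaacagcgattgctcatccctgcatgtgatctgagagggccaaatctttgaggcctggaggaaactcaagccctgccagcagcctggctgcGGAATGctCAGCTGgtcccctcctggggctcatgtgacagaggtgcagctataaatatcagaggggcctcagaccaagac

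The FOXO element (GTAAACA or its reverse complement), bound by the forkhead factors that drive atrophy genes, lies 194 to 188 bases before the start. It occurs in 3.17% of all 32851 mouse promoters of this length and in 2 of the 66 member promoters, those of Trim63 and Trim67. The MCAT element (CATTCC), bound by TEAD factors, lies 80 to 75 bases before the start. It occurs in 12.6% of promoters and in 11 of the 66 member promoters. Of the tested members 7 hold it, among them Trim54 and the interferon-inducible Trim30a. The E-box (CAGCTG), bound by helix-loop-helix factors, lies 72 to 67 bases before the start. It occurs in 13.0% of promoters and in 16 of the 66 member promoters. Of the tested members 11 hold it, among them Trim54, Trim5 and Trim12c. Neither element is thus particular to Trim63 or to the muscle members. These matches are descriptions of the sequence, the shares were not compared by a test, and binding was not measured.

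Trim72 (ENSMUSG00000042828; mm10 chromosome 7, 128003949 to 128011033), the membrane repair protein MG53, had 387, 362 and 359 CPM in MI-DAPA libraries, against 317, 285 and 283 CPM in MI-NS libraries. The groups did not overlap, and the log2 change was 0.32 ± 0.07 (SE; 1.25-fold; edgeR adjusted p = 0.0221). This was the least stable of the muscle calls: it held in 12 of 16 alternatives, and was lost without MI-DAPA replicate 1 (0.0826), without MI-NS replicate 3 (0.0815), without the third replicate of both groups (0.154) and with scaling by library totals (0.216).

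Trim54 (ENSMUSG00000062077; mm10 chromosome 5, 31116712 to 31137630), the MuRF3 ligase that stabilises microtubules and the Z-disc, had 254, 219 and 257 CPM in MI-DAPA libraries, against 205, 222 and 225 CPM in MI-NS libraries. MI-DAPA replicate 2 lay inside the MI-NS range. The log2 change of 0.16 ± 0.08 (SE) did not pass (edgeR adjusted p = 0.225), nor did it in any alternative.

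**Figure D3:**
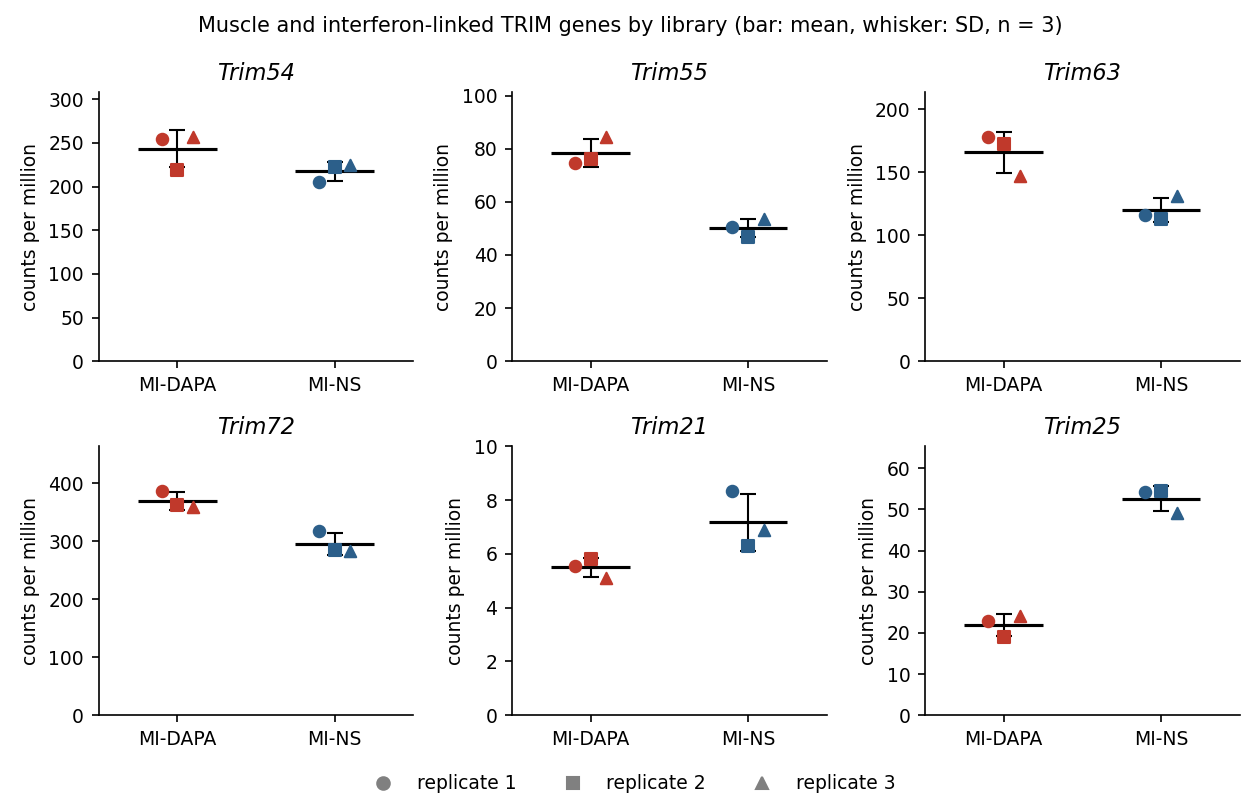
CPM of the 4 muscle members and of Trim21 and Trim25 in each library, MI-DAPA left of MI-NS, with the mean (bar) and SD (whisker) of 3 libraries. The groups are apart in every panel but that of Trim54, in which 219 CPM in an MI-DAPA library lies within the MI-NS range of 205 to 225.

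Trim25 was the member that differed most. This ligase (ENSMUSG00000000275; mm10 chromosome 11, 88999376 to 89020293) had 22.9, 18.9 and 24.0 CPM in MI-DAPA libraries, against 54.2, 54.5 and 49.2 CPM in MI-NS libraries. The groups were far apart, with the MI-DAPA libraries at 24.0 CPM or lower and the MI-NS libraries at 49.2 CPM or higher. The log2 change was -1.26 ± 0.11 (SE; 2.4-fold lower; edgeR adjusted p = 0.00124), which ranked 12 of 13984 genes by p and 180 by the size of the fall. Trim25 was called in all 16 alternatives run, with a log2 change of -1.37 to -1.16.

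Its promoter is shown for comparison with those of the interferon-inducible members described later (RefSeq, GRCm38.p6, plus strand, chr11:88999153-88999402). The RefSeq start lies slightly downstream of the start given in the files.

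Trim25: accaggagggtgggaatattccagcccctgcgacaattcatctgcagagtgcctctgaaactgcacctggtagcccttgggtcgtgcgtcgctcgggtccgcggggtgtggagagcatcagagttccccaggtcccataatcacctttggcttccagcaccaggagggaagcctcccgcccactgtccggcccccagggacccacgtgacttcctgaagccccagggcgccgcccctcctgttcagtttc

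None of the motifs searched was found in this window: the core of the interferon-stimulated response element (ISRE, GAAA, any 2 bases and GAAA again), the STAT-bound GAS element (TTCNNNGAA), the FOXO, MCAT and E-box letters above, and the MEF2, CArG and NF-kB motifs. The same search found none of them before the RefSeq starts of Trim21 or Trim72 either. This says only that those letters are not in these windows of 250 bases. The Trim72 window (chr7:128004128-128004377) lies inside the gene as placed above, from 128003949 on. The bases before that earlier start were not searched.

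Trim21 (ENSMUSG00000030966; mm10 chromosome 7, 102557922 to 102565469), the antibody receptor, was expressed at a lower level, with 5.56, 5.81 and 5.11 CPM in MI-DAPA libraries, against 8.34, 6.28 and 6.89 CPM in MI-NS libraries. The groups did not overlap, with MI-DAPA replicate 2 and MI-NS replicate 2 close together. The log2 change of -0.38 ± 0.15 (SE) did not pass (edgeR adjusted p = 0.125) and was not called in any alternative. Trim25 made up 80.5, 76.5 and 82.4% of the pair's CPM in MI-DAPA libraries, against 86.7, 89.7 and 87.7% in MI-NS libraries.

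Set against each other within a library, the muscle members stood higher above the interferon-linked pair after dapagliflozin. The mean log2 CPM of the 4 muscle members minus that of the pair was 4.06, 4.08 and 4.04 in MI-DAPA libraries, against 2.71, 2.86 and 2.97 in MI-NS libraries. The values did not overlap, and the difference between group means was 1.21, or 1.15 to 1.28 with any 1 library left out. Most of the pair's fall was that of Trim25, with a log2 change of -1.26, against -0.38 for Trim21, which did not pass. No p is given for the difference, since these genes were chosen with earlier results known. The ratio of Trim72 to Trim25 rests on the same Trim25 values. In CPM it was 16.9, 19.1 and 15.0 in MI-DAPA libraries, against 5.85, 5.23 and 5.76 in MI-NS libraries. The ratio of Trim55 to Trim63 was 0.42, 0.444 and 0.575 in MI-DAPA libraries, against 0.435, 0.413 and 0.408 in MI-NS libraries, and these ranges overlapped.

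The other antiviral or interferon-inducible members comprised 14 genes, of which 10 were tested. All 10 had log2 changes of 0 or below, whereas 47.7% of all genes were above 0. The median was -0.45 and the lowest value -0.84 (Trim6). The groups did not overlap in 4 of the 10, all with MI-DAPA below, beside 18.4% of all genes in that direction. Of the 10, 1 passed, as lower, beside 7.81% of all genes. Neither count was compared with the background by a test. The member that passed was Trim30a (ENSMUSG00000030921, mm10 chromosome 7, 104409025 to 104465193), an interferon-inducible mouse protein that restrains NF-kB signalling. It had 12.2, 12.6 and 12.3 CPM in MI-DAPA libraries, against 19.3, 16.2 and 17.1 CPM in MI-NS libraries. The MI-DAPA libraries lay close together, all below the MI-NS libraries, with a log2 change of -0.50 ± 0.10 (SE; 1.42-fold lower; edgeR adjusted p = 0.0126). The call was lost without MI-DAPA replicate 1 (edgeR adjusted p = 0.0512) and without the third replicate of both groups (0.113).

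Next to it by p were mouse relatives of the human retroviral restriction factor TRIM5. Trim12c averaged 9.76 ± 1.12 CPM in MI-DAPA and 12.7 ± 0.324 CPM in MI-NS hearts (SD, n = 3 each; log2 change -0.38; edgeR adjusted p = 0.0612). Trim34a averaged 6.92 ± 1.15 CPM in MI-DAPA and 9.3 ± 0.682 CPM in MI-NS hearts (log2 change -0.43; edgeR adjusted p = 0.0919). Trim12a and Trim30d, with log2 changes of -0.27 (edgeR adjusted p = 0.155) and -0.52 (0.167), did not pass either. Trim5, Trim12a, Trim12c, Trim30a to Trim30d, Trim34a and Trim34b are close copies in a cluster on chromosome 7, so reads may be split among them and their single values are uncertain.

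Outside the cluster, Trim26, a ligase reported to act on the interferon factor IRF3, had 8.5, 18.1 and 20.9 CPM in MI-DAPA libraries, against 27.1, 15.8 and 26.7 CPM in MI-NS libraries. These overlapped widely (log2 change -0.55 ± 0.31; edgeR adjusted p = 0.265). Trim56, which assists cytosolic DNA and RNA sensing, had a log2 change of -0.09 ± 0.09, and Trim14, an adaptor of the mitochondrial antiviral protein MAVS, one of 0.0 ± 0.24; neither passed. Trim14 shares 1356 of its 4338 exon bases with Nans on the opposite strand, and whether counting used strand is not stated. Trim6, Trim5, Trim30d and Trim14 all averaged below 4 CPM in each group.

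An ISRE core, the site bound by interferon regulatory and STAT factors, was found on either strand in the promoters of 5 tested members, all of them in this antiviral list: Trim5, Trim12c, Trim26, Trim30a and Trim30d. It occurs in 2.98% of all promoters and in 5 of the 66 member promoters, which were not compared by a test. Windows of 60 bases around it are shown because they hold this interferon element, with the core in capitals, in the direction of transcription (RefSeq, GRCm38.p6). They are Trim30a at chr7:104465195-104465254, Trim30d at chr7:104507856-104507915, Trim12c at chr7:104353350-104353409 and Trim5 at chr7:104288121-104288180, all on the minus strand, and Trim26 at chr17:36836964-36837023 on the plus strand.
Trim30a: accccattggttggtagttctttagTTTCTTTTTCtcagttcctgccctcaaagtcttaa
Trim30d: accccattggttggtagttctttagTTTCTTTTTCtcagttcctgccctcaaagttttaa
Trim12c: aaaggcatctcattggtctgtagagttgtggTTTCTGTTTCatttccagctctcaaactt
Trim5: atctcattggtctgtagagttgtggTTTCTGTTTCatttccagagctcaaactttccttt
Trim26: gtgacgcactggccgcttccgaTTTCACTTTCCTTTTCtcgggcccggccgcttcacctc

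The Trim30a and Trim30d windows were identical at 59 of 60 bases, and those of Trim12c and Trim5 at 52 of the 54 bases they have in common when aligned on the core. Trim26 holds overlapping cores, 160 to 145 bases before its start, whereas in Trim30a the core lies 36 to 27 bases before it. Another RefSeq promoter of Trim30a (chr7:104446126-104446375) holds no such core. Of these 5 genes Trim30a passed the test and the other 4 did not. RefSeq promoters were at hand for 52 of the 68 members and 33 of the 43 tested.

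Of the remaining called members, those higher in MI-DAPA hearts were Trim7 and Trim35. Trim7, known as a partner of the glycogen primer glycogenin, had 46.2, 46.7 and 43.8 CPM in MI-DAPA libraries, against 32.9, 36.1 and 39.3 CPM in MI-NS libraries (log2 change 0.34 ± 0.09, SE; edgeR adjusted p = 0.0345). Trim35, a ligase reported in human liver cancer cells to bind pyruvate kinase, had 106, 94.0 and 92.9 CPM in MI-DAPA libraries, against 85.8, 74.3 and 75.2 CPM in MI-NS libraries (log2 change 0.32 ± 0.09, SE; edgeR adjusted p = 0.0432). In both genes the groups did not overlap. Trim7 shares 140 exon bases with Gm12184 on the opposite strand.

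Those lower in MI-DAPA hearts were Trim3, Trim47 and Trim16. Trim3, an NHL-repeat ligase known from neurons, had 22.2, 25.1 and 29.2 CPM in MI-DAPA libraries, against 35.0, 34.0 and 32.4 CPM in MI-NS libraries (log2 change -0.41 ± 0.11, SE; edgeR adjusted p = 0.0379). Trim47, first described in human astrocyte tumours, had 21.8, 26.5 and 17.8 CPM in MI-DAPA libraries, against 31.5, 39.8 and 29.3 CPM in MI-NS libraries (log2 change -0.60 ± 0.16, SE; edgeR adjusted p = 0.0379). Trim16, which takes part in the autophagy of damaged lysosomes, had 5.42, 5.12 and 6.84 CPM in MI-DAPA libraries, against 8.96, 8.14 and 7.78 CPM in MI-NS libraries (log2 change -0.52 ± 0.15, SE; edgeR adjusted p = 0.0493). No MI-DAPA library of these 3 genes reached the lowest MI-NS library. Trim47 shares 225 exon bases with its neighbour Trim65 on the same strand.

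These 5 calls lay near the threshold. With any 1 library left out, Trim7 was called only without MI-NS replicate 3 and Trim35 only without MI-NS replicate 1. Trim3 and Trim16 were called only without MI-DAPA replicate 3, and Trim47 without MI-DAPA replicate 2 or MI-NS replicate 3. The direction held in every alternative run for all 5.

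**Figure D4:**
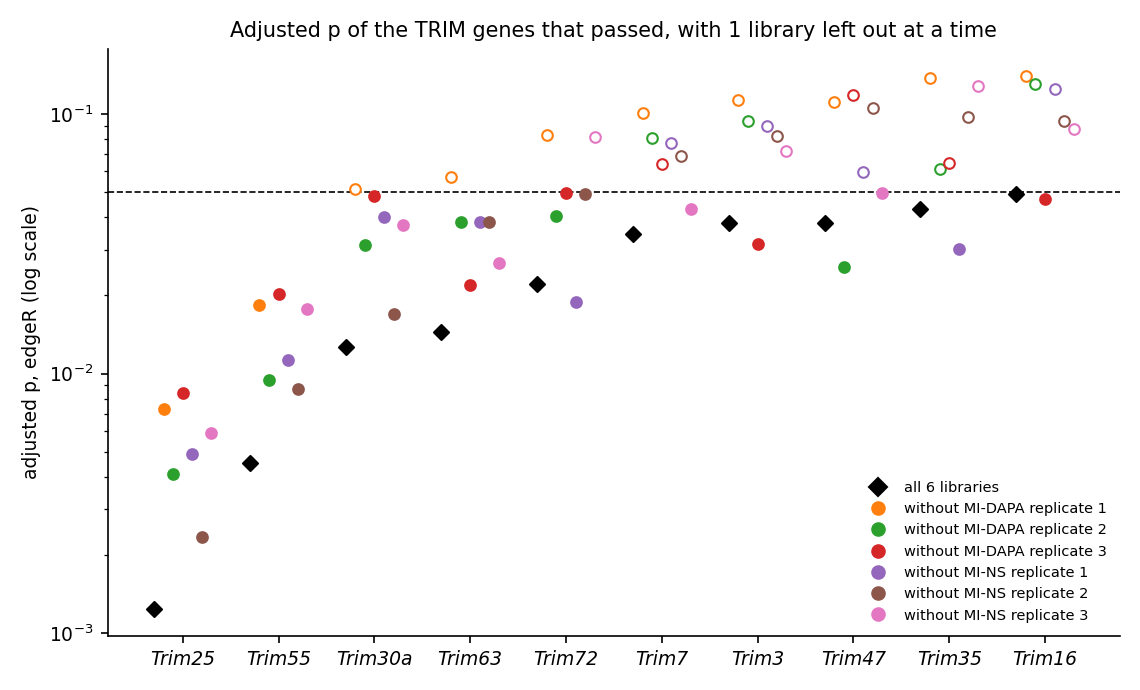
Adjusted p (edgeR, log axis) of the 10 called members with all 6 libraries (diamonds) and with each library left out in turn (circles, open where at or above the dashed line at 0.05). Trim25 and Trim55 stay below the line throughout, Trim30a and Trim63 cross it without MI-DAPA replicate 1 (0.0512 and 0.057), and Trim7, Trim3, Trim47, Trim35 and Trim16 are mostly above it.

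The chromatin-binding TIF1 group gave no call among 3 tested of 4. Trim28 (KAP1), the corepressor of zinc-finger proteins and retroelements, averaged 47.3 ± 5.14 CPM in MI-DAPA and 52.1 ± 2.4 CPM in MI-NS hearts (SD, n = 3 each; log2 change -0.14; edgeR adjusted p = 0.359). Trim24 and Trim33, which bind modified histones, had log2 changes of -0.18 (edgeR adjusted p = 0.197) and 0.10 (0.515).

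Among the NHL-repeat members, 3 of 4 were tested and Trim3 was the only call. Trim2, a neuronal ligase of neurofilaments, had a log2 change of -0.26 ± 0.28, and Trim32, whose human gene is mutated in a limb-girdle muscular dystrophy, one of -0.03 ± 0.13. The microtubule-binding COS-box group had 3 of 4 members tested and no call, with log2 changes of -0.76 ± 0.40 for Trim46, -0.22 ± 0.33 for Trim36 and -0.07 ± 0.28 for Trim67, all averaging below 3 CPM. Of the members anchored in membranes, Trim13 had a log2 change of 0.23 ± 0.19 and Trim59 one of -0.58 ± 0.26 (edgeR adjusted p = 0.163), without overlap between groups in Trim59.

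The abundant members outside these groups gave no call beyond those above. Trim44, whose protein lacks a RING finger, averaged 55.0 ± 1.8 CPM in MI-DAPA and 60.5 ± 2.42 CPM in MI-NS hearts (SD, n = 3 each; log2 change -0.14; edgeR adjusted p = 0.237). Trim41 averaged 29.3 ± 2.35 CPM in MI-DAPA and 33.9 ± 2.01 CPM in MI-NS hearts (log2 change -0.21; edgeR adjusted p = 0.155). Trim8, which acts on SOCS1 in cytokine signalling, averaged 27.4 ± 0.893 CPM in MI-DAPA and 29.2 ± 2.97 CPM in MI-NS hearts, and Trim11 averaged 21.4 ± 1.51 CPM in MI-DAPA and 23.7 ± 1.27 CPM in MI-NS hearts; neither passed. In all, 33 tested members were not called, and 15 of the 43 had an unadjusted edgeR p under 0.05. The last of these 15, Trim41, ranked 4502 of all 13984 tested genes by p. At least that many genes thus had such a p.

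The 25 members not tested were near the detection limit. Of these, 8 had no count in any library and 17 had at least 1, with at most 42 counts over the 6 libraries together (Trim30b) and at most 12 in 1 library. They include the antiviral Trim38, the TIF1 member Trim66, the NHL member Trim71 and the neuronal Trim9. The lowest tested member, Trim6, had 129 counts in all.

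Around the muscle members, the other ubiquitin ligases and regulators of muscle atrophy were read from the same fit. Of 17 such genes, all tested, 6 were higher and none lower in MI-DAPA hearts, beside 8.65% and 7.81% of all genes. Their median log2 change was 0.24. Fbxo32 (atrogin-1), the F-box ligase induced with Trim63 in atrophy, had 215, 169 and 187 CPM in MI-DAPA libraries, against 144, 111 and 134 CPM in MI-NS libraries (log2 change 0.55 ± 0.12, SE; edgeR adjusted p = 0.018). Klf15, a glucocorticoid-responsive activator of atrophy genes, had 57.2, 53.8 and 50.0 CPM in MI-DAPA libraries, against 36.6, 34.2 and 35.9 CPM in MI-NS libraries (0.59 ± 0.08; edgeR adjusted p = 0.00498). Foxo3, a forkhead factor, had 128, 104 and 119 CPM in MI-DAPA libraries, against 84.3, 67.1 and 81.1 CPM in MI-NS libraries (0.60 ± 0.11, edgeR adjusted p = 0.0097). In these 3 genes every MI-DAPA library was above every MI-NS library, as in 18.4% of all genes. Asb2 (0.47 ± 0.08), Fbxo40 (0.42 ± 0.07) and Fbxo21 (0.50 ± 0.12) were the other higher genes. The forkhead factors Foxo1 (0.11 ± 0.08) and Foxo4 (0.24 ± 0.1) did not pass. The 6 calls became 4 without MI-DAPA replicate 1, 3 with scaling by library totals and 0 without the third replicate of both groups.

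Of 6 titin kinase and MuRF partners, 2 were higher (Myom1 and Nbr1) and none lower, beside 8.65% and 7.81% of all genes. Myom1, an M-band protein, had a log2 change of 0.51 ± 0.08 (SE, edgeR adjusted p = 0.00591). Nbr1, an autophagy receptor that binds the titin kinase, had one of 0.38 ± 0.07 (edgeR adjusted p = 0.0108). Sqstm1 (p62), the receptor that joins Trim55 to this complex, did not pass (0.12 ± 0.07; edgeR adjusted p = 0.282). The 2 calls became 1 with scaling by library totals and 0 without the third replicate of both groups. Of 6 partners of Trim72 in membrane repair and insulin signalling, the insulin receptor gene Insr was higher (0.33 ± 0.09; edgeR adjusted p = 0.0327) and Myh9, a non-muscle myosin, was lower (-0.44 ± 0.10; edgeR adjusted p = 0.021). With 1 library left out, the higher call held only without MI-NS replicate 1 and the lower call only without MI-DAPA replicate 2 or MI-NS replicate 3; both were lost without the third replicate of both groups, and the higher one with scaling by library totals.

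Around Trim25, 6 of 18 genes of RIG-I and interferon signalling were lower and 1 was higher in MI-DAPA hearts. Over all genes 7.81% were lower and 8.65% higher. The median log2 change of the 18 was -0.39. Ddx58, which encodes RIG-I, had 14.4, 16.7 and 17.1 CPM in MI-DAPA libraries, against 23.2, 23.2 and 24.0 CPM in MI-NS libraries (log2 change -0.55 ± 0.10, SE; edgeR adjusted p = 0.00838). Stat2, a transducer of the interferon receptor, had 20.9, 21.6 and 24.9 CPM in MI-DAPA libraries, against 34.8, 36.5 and 32.0 CPM in MI-NS libraries (-0.62 ± 0.10; edgeR adjusted p = 0.00643). Both genes were lower in every MI-DAPA library than in any MI-NS library, as were 18.4% of all genes. Irf8, Zc3hav1, Ifih1 and Ifit3 were the other lower genes. Mavs, the mitochondrial adaptor downstream of RIG-I, was the higher one, with 63.3, 56.9 and 66.8 CPM in MI-DAPA libraries, against 48.1, 43.3 and 47.4 CPM in MI-NS libraries (0.43 ± 0.09; edgeR adjusted p = 0.0142). The 6 lower calls became 2 without MI-DAPA replicate 1, MI-DAPA replicate 3 or MI-NS replicate 3, and 0 without the third replicate of both groups. The higher call was lost in that last setting, without MI-DAPA replicate 1 and with scaling by library totals.

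Of 12 genes of the Ube2 (ubiquitin-conjugating enzyme) family, 1 was higher and 1 lower, beside 8.65% and 7.81% of all genes. Both had groups that overlap in CPM and a split within a group. Ube2v1 had 5.07, 22.5 and 25.6 CPM in MI-DAPA libraries, against 3.11, 3.43 and 6.06 CPM in MI-NS libraries (log2 change 2.09 ± 0.54, SE; edgeR adjusted p = 0.0316). Ube2l3 had 169, 158 and 180 counts in MI-DAPA libraries, against 1180, 204 and 1049 counts in MI-NS libraries (-2.23 ± 0.55; edgeR adjusted p = 0.0276). Scaled to depth, MI-NS replicate 2 of Ube2l3 lay just below MI-DAPA replicate 3, at 10.3 CPM, and MI-DAPA replicate 1 of Ube2v1 lay below MI-NS replicate 3. Both calls were lost with limma-voom, without MI-DAPA replicate 2, MI-DAPA replicate 3 or MI-NS replicate 3, and without the third replicate of both groups. In addition the higher one was lost without MI-NS replicate 1 or 2 and the lower one without MI-DAPA replicate 1. TRIM genes known under other names gave no call among 3 tested of 4 (Pml -0.19, Mid1 -0.51, Mid2 0.08; log2 changes).

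**Figure D5:**
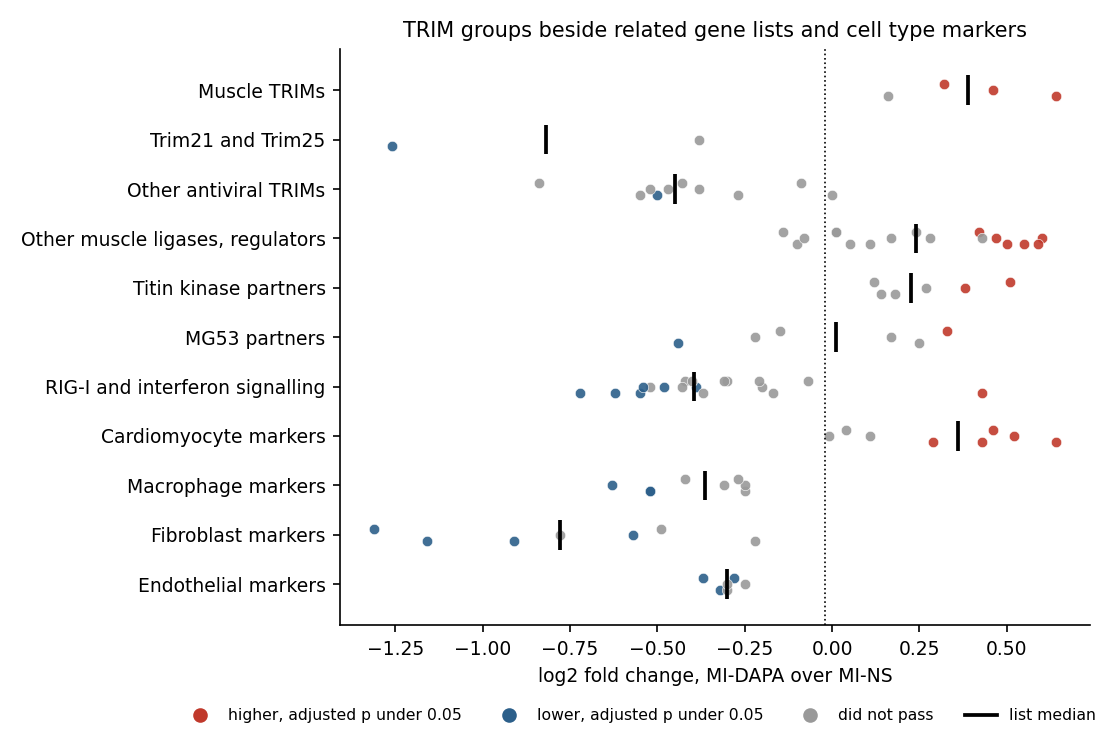
Log2 change, MI-DAPA over MI-NS, of every tested gene (points, coloured by the outcome of the test) in 3 TRIM groups, 4 neighbouring pathway lists and 4 marker lists, with each list's median (bar) and the median of all genes, -0.02 (dotted line). Medians are 0.39 for the muscle TRIMs and 0.36 for cardiomyocyte markers, and -0.82 for Trim21 and Trim25, -0.37 for macrophage and -0.78 for fibroblast markers.

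Cell type markers differed between the groups as well, and their part in the TRIM values was not tested. For comparison, 8.65% of all tested genes were higher and 7.81% lower. The 8 cardiomyocyte markers summed to 55300 to 58700 CPM in MI-DAPA libraries, against 44900 to 47500 CPM in MI-NS libraries, with 5 of 8 higher and a median log2 change of 0.36. The 8 macrophage markers summed to 268 to 302 CPM in MI-DAPA libraries, against 351 to 443 CPM in MI-NS libraries, with 3 of 8 lower and a median of -0.37. The 7 fibroblast markers summed to 833 to 982 CPM in MI-DAPA libraries, against 1370 to 1880 CPM in MI-NS libraries, with 4 of 7 lower and a median of -0.78. Endothelial markers had 3 of 6 lower (median -0.30; sums of 757 to 798 CPM in MI-DAPA and 902 to 989 CPM in MI-NS libraries), and smooth muscle and pericyte markers 2 of 5 (median -0.42; 777 to 817 CPM in MI-DAPA and 905 to 1040 CPM in MI-NS libraries). Fast skeletal muscle markers summed to 2.18 to 2.71 CPM in MI-DAPA libraries and 2.11 to 3.03 CPM in MI-NS libraries, with Myh4 at 0 in all. T and B cell markers summed to at most 2.0 CPM in any library. Mitochondrial genes took 35.1 to 40.7% of counts in MI-DAPA libraries and 34.3 to 42% in MI-NS libraries, which overlap. In both groups the highest share was that of the third replicate.

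The choice of scaling changes the balance of calls. With libraries scaled by their totals alone, all log2 changes shift by a median of -0.10, 2.92% of all genes are higher and 8.94% lower, and 24.7% of calls are higher, against 52.6% with TMM factors. Under that scaling 1 member is higher (Trim55) and 6 are lower (Trim12c in addition to the 5), while Trim63, Trim72, Trim7 and Trim35 are no longer called; their log2 changes remain above 0.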

How the data were processed

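RNA-seq libraries of left ventricle from infarcted mice were analysed, 3 MI-DAPA and 3 MI-NS. The authors deposited raw read counts per gene, 1 table a library. Total RNA was extracted, mRNA separated and sequenced on a NovaSeq, per the labels' protocols; StringTie 1.3.0, edgeR and the mm10 build are named per the submitters' processing notes. Which aligner and counting tool were used, and whether strand was, is not given in the sources here. Genes with 10 or more counts in at least 3 libraries (13984) were tested with edgeR 4.0.16 (R 4.3.3; quasi-likelihood test, TMM factors, group only), MI-DAPA over MI-NS, Benjamini-Hochberg adjusted over all of them at 0.05. The SE is the log2 change divided by the square root of F. CPM use TMM-scaled totals of tested genes; log2 CPM add a prior count of 2. Exon lengths come from GENCODE M21, which holds all 68 members. Values are given in every library for the muscle and interferon-linked members and all called ones, and as summaries for the next 5 by level per kb, the next 5 by p and the role groups. Members and gene lists were chosen with earlier results of these data known. Alternatives were other scalings, filters and tools (DESeq2 1.42.0, limma 3.58.1 voom), a replicate block and libraries left out.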

Additional observations from a re-analysis of the deposited data

How the results depend on the processing

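With each library left out in turn, or the third replicate of both groups, 1 to 7 TRIM members were called (0 to 4 higher, 1 to 4 lower), against 10 with all libraries, and 22 to 1894 of all genes (7 to 1073 higher, 15 to 874 lower), against 2302. The low ends came without the third replicates; without 1 library the fewest genes, 1019, were called without MI-DAPA replicate 1. The median log2 change was 0.35 to 0.48 for the muscle members and -0.86 to -0.74 for the interferon-linked pair. With libraries scaled by their totals, 1 member and 409 genes were higher, and these medians were 0.30 and -0.93. Deviations of same-numbered libraries correlated at 0.0419, -0.00344 and 0.114 for replicates 1, 2 and 3. The value of the third replicates was the highest of any pair. MI-DAPA replicate 1 correlated about as well with MI-NS replicate 2 (0.0434), and MI-DAPA replicate 2 correlated best with MI-NS replicate 1 (0.0196). These weak correlations do not decide whether replicate numbers pair the libraries. With the replicate number as a block, 8 members were called, 3 of them lower (Trim3 and Trim16 were lost), and 2305 genes in all. Of the members followed one by one under the alternatives (those given in full and the next 5 by level and by p), none changed direction. The directions of the other members under the alternatives were not compared. The members not tested had at most 12 counts in any library, and 3 libraries a group limit the precision of the rest.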
